A study of Mus musculus with 12 samples.

Results

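The genes described here are those of the mouse mitochondrial genome, taken as every gene of the deposited count table whose symbol begins with mt-. They number 37 of the 52459 genes of the table: 2 ribosomal RNAs (rRNAs), 13 messenger RNAs (mRNAs) and 22 transfer RNAs (tRNAs). The mitochondrial genome is a small circle present in many copies per cell. Both of its strands are transcribed as long precursors, and tRNAs that lie between the other genes are cut out, which releases the rRNAs and mRNAs. Its mRNAs encode core subunits of the respiratory chain complexes and of the ATP synthase, its rRNAs form the RNA of the mitochondrial ribosome, and all other mitochondrial proteins come from nuclear genes. In RNA-seq of sorted immune cells these transcripts often take a large part of the reads, and their share is used as a sign of cell state and of RNA quality.

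RNA-seq counts were given for 12 libraries in 6 groups of 2. γδ T cells, a lymphocyte class with a receptor of γ and δ chains, came from wild-type (WT) C57BL/6 mice fed an MCD diet or a control (Ctl) diet. CD4+ T cells, the helper class with an αβ receptor, came from γδTCR-/- mice, which are meant to lack γδ T cells and are called KO here, and from WT mice, each fed MCD or control diet. MCD is the usual short form of a methionine- and choline-deficient diet, which is used to cause steatohepatitis in mice, but the labels do not spell the diet out, and they name a strain for the WT mice only. All mice were 7 weeks old when the diet began and were fed for 6 weeks, and cells were sorted by flow cytometry straight into lysis buffer. The series was made to compare γδ T cells between diets, and CD4+ T cells between diets and genotypes. No tissue is named in the labels, which also leave unsaid whether the libraries of a group came from separate mice, so p-values measure only the spread between these libraries, which may be technical. The labels do not say which gene part the knockout removes. Replicates carry the numbers of the labels, so the WT groups have numbers such as 2 and 3, or 6 and 7. The title of γδ MCD replicate 2 carries a second code that is also the code of WT CD4+ MCD replicate 1, and the labels do not say whether these libraries share a source.

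Several mitochondrial genes have near-identical copies in nuclear DNA that could take or share their reads. In the GRCm38 build, 7 annotated nuclear pseudogenes lie side by side on chromosome 1, on the reverse strand, between bases 24611535 and 24616197, a stretch of 4663 bases. They copy, in genome order, the end of mt-Co1 and then mt-Co2, mt-Atp6, mt-Co3, mt-Nd3, mt-Nd4l and the start of mt-Nd4. The distances between the starts of neighbouring copies, from that of mt-Co2 on, equal those between the mitochondrial genes in 4 of 5 pairs and differ by 1 base in the other. The first 60 bases of a pair of genes and of their chromosome 1 copies, from the GENCODE vM21 transcripts of GRCm38, show how little separates them. A capital marks the only base at which mt-Nd3 and its copy differ, T3C, counted from 1 at the 5′ end of the gene with the mitochondrial base first.
mt-Nd3: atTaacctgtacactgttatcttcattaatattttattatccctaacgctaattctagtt
Gm28438: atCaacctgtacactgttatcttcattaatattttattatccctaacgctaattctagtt
mt-Co2: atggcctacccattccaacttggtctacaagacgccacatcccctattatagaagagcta
Gm28661: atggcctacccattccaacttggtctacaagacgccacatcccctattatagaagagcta

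The share of a gene's 50-base windows with an exact copy among annotated nuclear transcripts was 100% for mt-Co2, 99.9% for mt-Co3, 99.5% for mt-Atp6, 98.8% for mt-Nd4l and 98.0% for mt-Nd3. It was 62.2% for mt-Nd4, which has 876 bases identical to Gm28439, and 51.1% for mt-Co1. It was 8.19% for mt-Nd2, 7.61% for mt-Nd5 and 1.04% for mt-Rnr2, and 0 for mt-Rnr1, mt-Nd1, mt-Nd6, mt-Cytb, mt-Atp8 and all 22 tRNAs. How reads with several matches were treated, and whether strand was used, is not given in the sources used here.

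Total counts per library lay between 17035638 and 23203603, and counts outside the mitochondrial genome between 7977220 and 10851934. Of all genes, 16218 passed the filter on low counts and were tested; of the 37 members, 26 passed (2 rRNAs, 13 mRNAs and 11 tRNAs) and 11 tRNAs did not. CPM are counts scaled to library totals corrected by TMM (trimmed mean of M-values) factors, so they are not shares of all counts. Trdc, the constant region of the δ chain, had 537 to 732 CPM in γδ libraries, 0.919 to 7.93 CPM in KO CD4+ libraries and 0.231 to 2.8 CPM in WT CD4+ libraries. The KO CD4+ libraries were thus not below the WT ones for this gene. A list of 4 γδ T cell markers (Trdc and 3 γ chain constant regions) summed to 22.2 and 83.8 CPM in KO CD4+ MCD libraries, against 60.3 and 123 CPM in WT CD4+ MCD libraries, and to 16.0 and 26.3 CPM in KO CD4+ control libraries, against 227 and 307 CPM in WT CD4+ control libraries. The same list stood at 1740 to 3220 CPM in γδ libraries. A list of 3 CD4+ T cell markers summed to 50.5 to 231 CPM in γδ libraries and 1250 to 2470 CPM in CD4+ libraries. A list of 8 macrophage and Kupffer cell markers reached 858 to 2060 CPM in γδ libraries, against 12.4 to 48.1 CPM in CD4+ libraries.

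Mitochondrial transcripts made up 40.8 to 56.8% of all counts of a library, and nearly all of that was rRNA. In γδ T cells the share was 56.8 and 53.8% on MCD and 54.6 and 56.2% on control diet. In KO CD4+ T cells it was 43.9 and 41.1% on MCD, against 52.7 and 51.1% on control diet. In WT CD4+ T cells it was 43.9 and 40.8% on MCD, against 42.2 and 41.1% on control diet. The 95% Wilson interval of a share reached at most 0.0236 percentage points to either side, which covers counting error only, so the spread lies between libraries.

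The share of all 37 members averaged 55.4 ± 1.39% in γδ libraries, against 42.0 ± 1.40% in WT CD4+ libraries (SD, n = 4 each, both diets pooled), a difference of 13.4 points. No γδ library overlapped a CD4+ one of the same genotype. A two-sided exact permutation test gave p = 0.0286, the smallest that 4 against 4 libraries allow, and 0.171 after Benjamini-Hochberg adjustment over the 6 share and ratio comparisons made. KO CD4+ libraries averaged 47.2 ± 5.58%, against 42.0 ± 1.40% in WT CD4+ libraries (SD, n = 4 each; exact permutation p = 0.114, adjusted 0.229). CD4+ libraries on MCD averaged 42.4 ± 1.71%, against 46.8 ± 5.96% on control diet (SD, n = 4 each; exact permutation p = 0.314, adjusted 0.446), and the wide spread of the control libraries is that between KO and WT. Leaving out 1 library moved the genotype difference of 5.19 points to between 3.37 and 7.23 points and the diet difference of -4.33 points to between -6.24 and -2.37 points; both were smallest without KO control replicate 1. In such bulk samples, fewer cells of a type and less RNA per cell cannot be told apart.

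**Figure D1:**
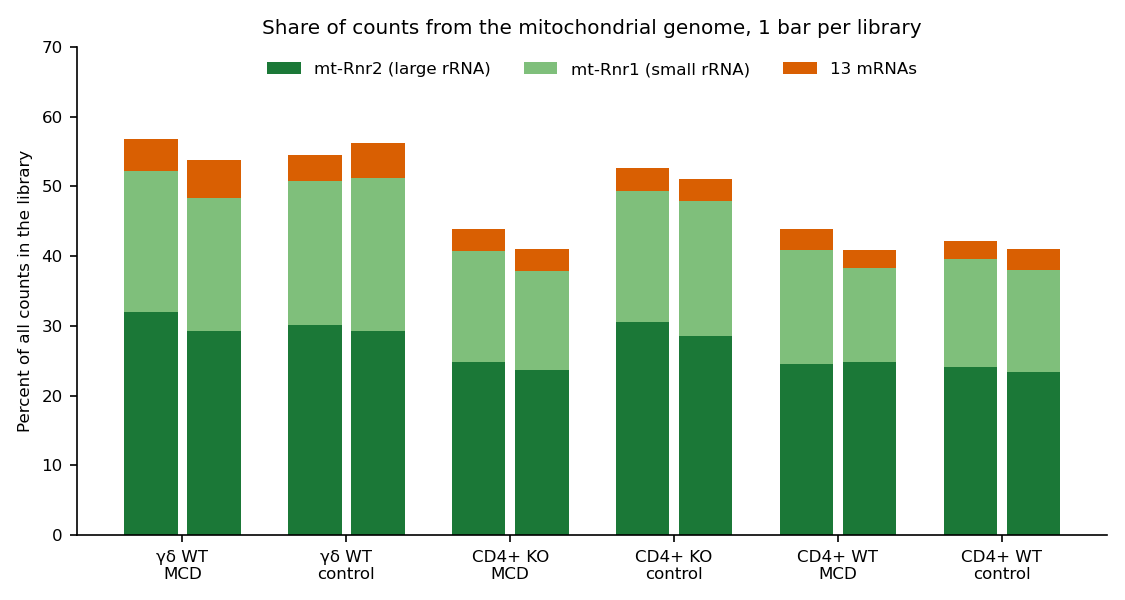
Share of all counts of each library (vertical axis, percent) taken by mt-Rnr2, mt-Rnr1 and the 13 mitochondrial mRNAs, stacked, for the 12 libraries by group. The 4 γδ libraries and the 2 KO control libraries stand above 50%, and the other 6 CD4+ libraries between 40.8 and 43.9%.

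The rRNAs are mt-Rnr1, the small-subunit 12S rRNA (chromosome M, bases 70 to 1024), and mt-Rnr2, the large-subunit 16S rRNA (bases 1094 to 2675). They lie next to each other at the start of the forward transcript, separated by a tRNA, and together held 37.9 to 52.3% of all counts. mt-Rnr2 took 32.0 and 29.3% of counts in γδ MCD libraries and 30.1 and 29.3% in γδ control libraries. It took 24.9 and 23.7% in KO MCD libraries, against 30.5 and 28.5% in KO control libraries, and 24.6 and 24.8% in WT CD4+ MCD libraries, against 24.1 and 23.4% in WT CD4+ control libraries. mt-Rnr1 took 13.5 to 21.95% of counts. The pair stayed close to parity once divided by length: the level of mt-Rnr1 per kilobase over that of mt-Rnr2 lay between 0.899 and 1.24 in the 12 libraries.

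The 13 mRNAs together held 2.54 to 5.43% of all counts. Their share was 4.52 and 5.43% in γδ MCD libraries and 3.82 and 4.97% in γδ control libraries, and 2.54 to 3.36% in the 8 CD4+ libraries, so every γδ library was above every CD4+ library. The rRNA counts per mRNA count were 11.6 and 8.92 in γδ MCD libraries and 13.3 and 10.3 in γδ control libraries, against 11.7 to 15.05 in CD4+ libraries, and these ranges overlapped. On the log2 scale the ratio averaged 3.45 ± 0.24 in γδ libraries and 3.81 ± 0.11 in WT CD4+ libraries (SD, n = 4 each; difference -0.36, two-sided exact permutation p = 0.0571, adjusted 0.171). The differences between diets (-0.10, exact permutation adjusted p = 0.446) and genotypes (-0.06, exact permutation adjusted p = 0.600) of CD4+ T cells were smaller than the spread between libraries, and without KO MCD replicate 2 they were -0.04 and 0.01.

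Levels of the mRNAs can be compared only per length. TMM-scaled CPM divided by gene length gave medians over the 12 libraries of 175000 for mt-Rnr1 and 161200 for mt-Rnr2. Among the mRNAs the highest median was that of mt-Co1, the catalytic core of complex IV (cytochrome c oxidase; bases 5328 to 6872 of chromosome M), at 9250 CPM per kilobase (5858 to 18000). mt-Cytb, the cytochrome b of complex III (bases 14145 to 15288), followed at 4982 CPM per kilobase (3021 to 9854). The complex I (NADH dehydrogenase) subunits came next, with medians of 2233 for mt-Nd5, 2085 for mt-Nd1, 1849 for mt-Nd2, 1542 for mt-Nd4 and 1211 for mt-Nd6. mt-Nd1 lies at bases 2751 to 3707, mt-Nd2 at 3914 to 4951, mt-Nd4 at 10167 to 11544, mt-Nd5 at 11742 to 13565 and mt-Nd6 at 13552 to 14070. Within libraries part of this order held: mt-Nd5, mt-Nd1 and mt-Nd2 were above mt-Nd6 in 12 of 12 libraries, and mt-Nd5 and mt-Nd1 above mt-Nd4 in 12 of 12. mt-Nd5 was above mt-Nd1 in 9 of 12 libraries and above mt-Nd2 in 7 of 12, and mt-Nd1 above mt-Nd2 in 6 of 12. mt-Nd6 is the only mRNA read from the opposite strand of the genome, and its end overlaps that of mt-Nd5 by 14 bases, so reads there cannot be assigned without strand.

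The other 6 mRNAs stood far below: mt-Atp6 at a median of 22.4, mt-Nd3 at 6.09, mt-Nd4l at 4.69, mt-Atp8 at 4.44, mt-Co2 at 4.27 and mt-Co3 at 0.29 CPM per kilobase. mt-Co2 and mt-Co3 encode the other core subunits of complex IV, mt-Atp6 and mt-Atp8 subunits of the ATP synthase, and mt-Nd3 and mt-Nd4l subunits of complex I. All 6 lie next to each other in the mitochondrial genome, from base 7013, where mt-Co2 starts, to base 10173, where mt-Nd4l ends, inside the stretch that chromosome 1 copies. Their counts are not read as the abundance of these mRNAs here.

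**Figure D2:**
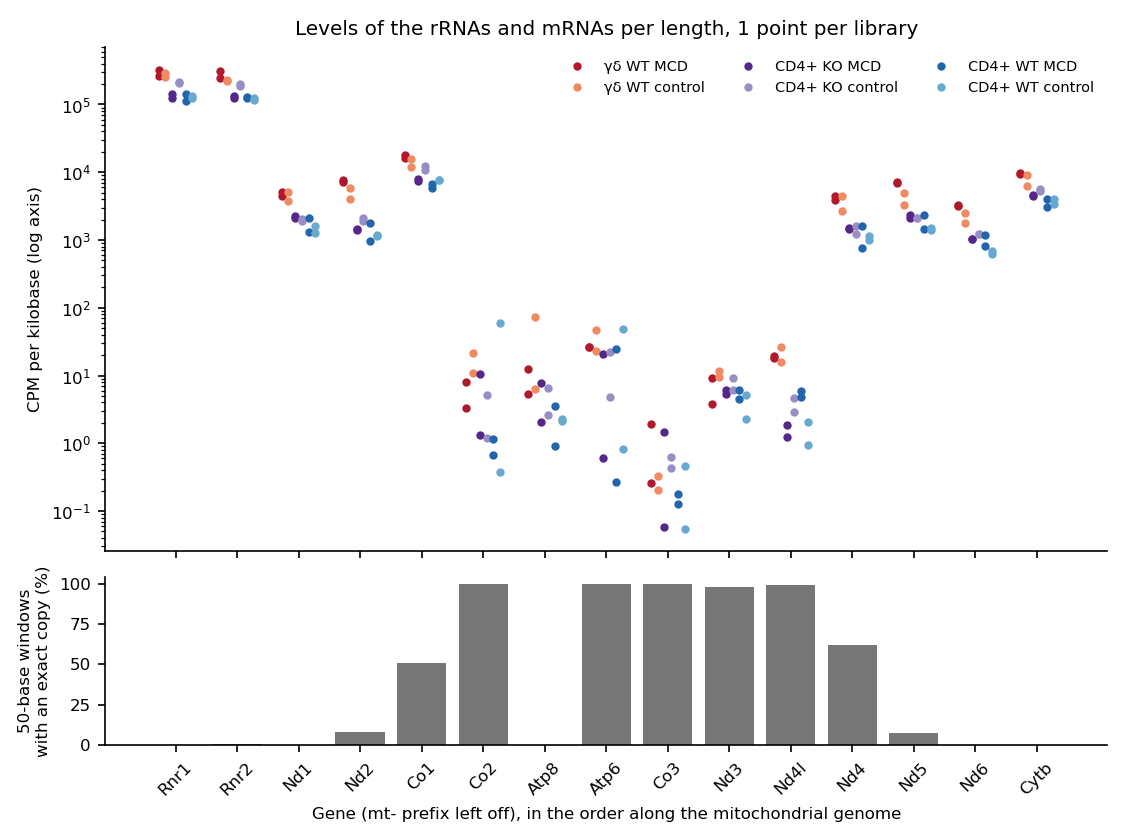
Upper panel, level of each rRNA and mRNA per library (points) in CPM per kilobase on a log axis; lower panel, percent of each gene's 50-base windows with an exact copy in annotated nuclear transcripts. Of the 6 mRNAs with medians between 0.29 and 22.4 CPM per kilobase, 5 have copies over 98.0% or more of their windows, and mt-Atp8 has none annotated.

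The main contrast among the members was between the cell types. All 9 well-counted members, the 2 rRNAs and 7 mRNAs, were higher in γδ than in WT CD4+ T cells on MCD, on control diet and in the average over both diets, by edgeR's quasi-likelihood test, with p-values adjusted after Benjamini and Hochberg over 16218 genes. Of all genes tested, 2.65% were called on MCD (1.47% higher and 1.18% lower), 0.654% on control diet (0.45% higher) and 5.96% in the average (3.42% higher). The difference was widest for the complex I subunit mt-Nd2, 4.81-fold in the average over diets, and narrowest for mt-Rnr2, 2.02-fold. Complex I mRNAs lay between 2.94- and 4.81-fold, mt-Cytb at 2.40-fold, mt-Co1 at 2.25-fold and mt-Rnr1 at 2.20-fold.

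mt-Nd2 had 7436 and 7846 CPM in γδ MCD libraries, against 1870 and 1018 CPM in WT CD4+ MCD libraries. It had 4183 and 6122 CPM in γδ control libraries, against 1232 and 1203 CPM in WT CD4+ control libraries. Every γδ library stood above every CD4+ library, also above the KO control libraries at 1968 and 2217 CPM. The log2 fold change was 2.40 ± 0.25 on MCD (SE; edgeR adjusted p = 0.000359) and 2.08 ± 0.24 on control diet (SE; edgeR adjusted p = 0.00119).

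mt-Nd5 had 12760 and 12880 CPM in γδ MCD libraries, against 4278 and 2618 CPM in WT CD4+ MCD libraries. On control diet it had 6050 and 9009 CPM in γδ libraries, against 2525 and 2785 CPM in WT CD4+ libraries. The groups did not overlap on either diet, with log2 fold changes of 1.89 ± 0.21 on MCD and 1.5 ± 0.21 on control diet (SE; edgeR adjusted p = 0.000663 and 0.00333). The other complex I subunits mt-Nd1, mt-Nd4 and mt-Nd6 had log2 fold changes of 1.49, 1.80 and 1.67 on MCD and of 1.63, 1.71 and 1.71 on control diet, with edgeR adjusted p between 0.00333 and 0.0161.

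mt-Co1 had 25180 and 27800 CPM in γδ MCD libraries, against 9051 and 10250 CPM in WT CD4+ MCD libraries, and 18730 and 24560 CPM in γδ control libraries, against 11760 and 11780 CPM in WT CD4+ control libraries. Its log2 fold change was 1.46 ± 0.12 on MCD and 0.88 ± 0.12 on control diet (SE; edgeR adjusted p = 7.8e-05 and 0.00337). The difference of these 2 changes, 0.58 ± 0.17, did not pass the test (edgeR adjusted p = 0.348). mt-Cytb, with 10750 and 11270 CPM in γδ MCD libraries against 4661 and 3456 CPM in WT CD4+ MCD libraries, had log2 fold changes of 1.44 ± 0.18 on MCD and 1.08 ± 0.17 on control diet (SE; edgeR adjusted p = 0.00116 and 0.0101). Across all tested genes the test of that difference called 0 at the adjusted threshold and 1714 (10.6%) at an unadjusted p under 0.05; limma-voom called 0 and DESeq2 644.

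mt-Rnr2 had 487300 and 383600 CPM in γδ MCD libraries, against 205400 and 195700 CPM in WT CD4+ MCD libraries. On control diet it had 350600 and 368000 CPM in γδ libraries, against 199100 and 186400 CPM in WT CD4+ libraries. The groups lay apart on both diets, and the log2 fold change was 1.12 ± 0.08 on MCD and 0.90 ± 0.08 on control diet (SE; edgeR adjusted p = 1.8e-05 and 0.000255). mt-Rnr1 had log2 fold changes of 1.20 ± 0.12 and 1.08 ± 0.12 (SE; edgeR adjusted p = 0.000271 and 0.00114). The part that macrophage and Kupffer cell transcripts in the γδ libraries, given above, have in these differences was not tested, nor was that of 5 neutrophil and monocyte markers, at 62.4 to 297 CPM in γδ libraries and 1.65 to 27.1 CPM in CD4+ libraries. The same holds for 2 CD8 T cell markers, at 69.9 to 326 CPM in γδ libraries and 2.99 to 12.8 CPM in CD4+ libraries. On control diet 7 endothelial markers summed to 615 to 1150 CPM in γδ and 113 to 158 CPM in WT CD4+ libraries, and 7 B and plasma cell markers to 620 to 635 and 288 to 351 CPM, and their part was not tested either. Scaling by total counts alone moved the median of all genes by -0.61 on the log2 scale in the average over diets, and all 9 members remained higher in γδ T cells under it, with mt-Rnr2 at 0.32. On control diet it did not call mt-Co1, mt-Cytb and mt-Nd4 (edgeR adjusted p = 0.335, 0.236 and 0.0842), and on MCD not mt-Nd1 (0.0587).

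The γδ calls on control diet depended on the method and on single libraries. There limma-voom did not call mt-Cytb, mt-Nd4 and mt-Nd5 (adjusted p = 0.147, 0.0726 and 0.117). Using limma on log2(FPKM + 1), mt-Rnr1, mt-Rnr2, mt-Co1 and mt-Cytb were not called on that diet (adjusted p = 0.0735, 0.108, 0.0703 and 0.057). Without WT CD4+ control replicate 2, 3 of the 9 members were called by edgeR, without WT CD4+ control replicate 3, 5, and without γδ control replicate 7, 4. On MCD, 6 were called without WT CD4+ MCD replicate 3. On MCD 9 were called without γδ MCD replicate 2 and 9 without WT CD4+ MCD replicate 1, the libraries that share a code. All 9 kept their direction and were called in the average over diets without any one library, and mt-Nd2 was called on each diet without any one library.

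**Figure D3:**
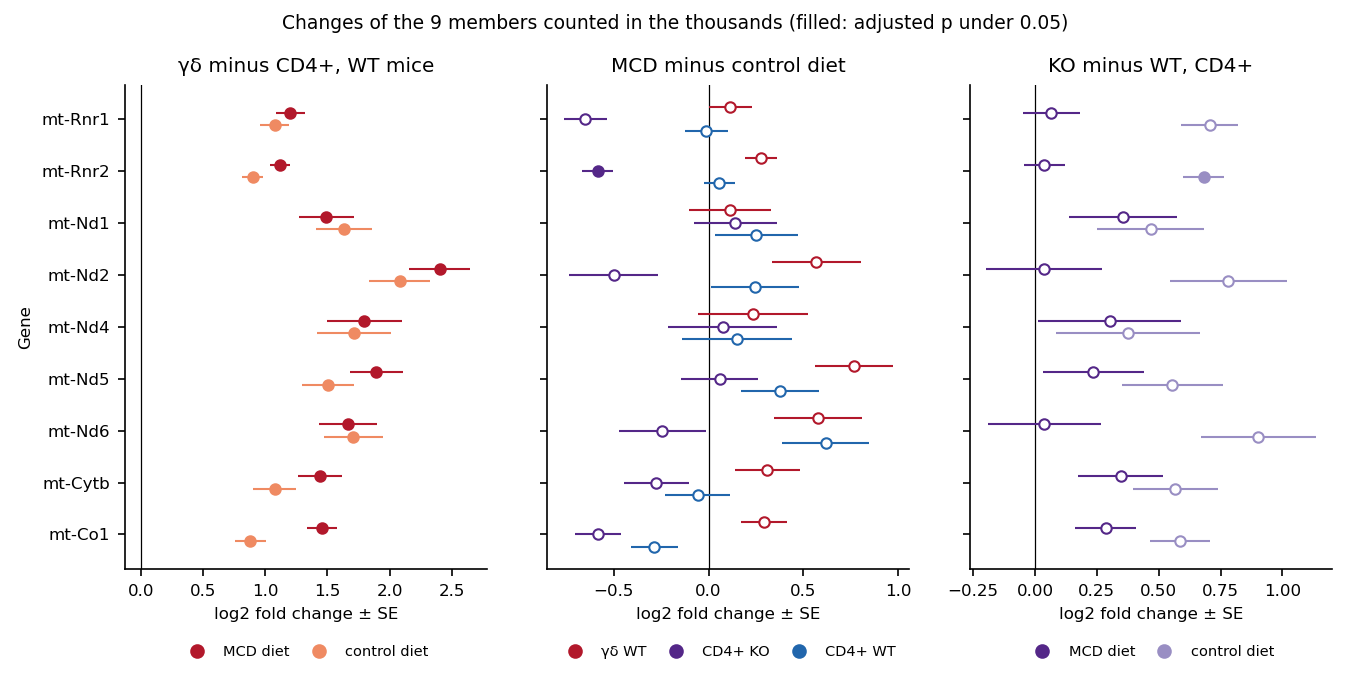
Log2 fold change ± SE of the 9 well-counted members in edgeR's fit, in 3 panels: γδ minus CD4+ T cells by diet, MCD minus control by cell type and genotype, and KO minus WT CD4+ T cells by diet; filled points have an adjusted p under 0.05. All points of the first panel are filled, between 0.88 and 2.40, and in the other panels only mt-Rnr2 is filled, in KO CD4+ T cells between diets and in KO against WT on control diet.

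Within the mitochondrial mRNAs the makeup also differed between the cell types. mt-Nd2 held 10.8 and 11.04% of mitochondrial mRNA counts in γδ MCD libraries and 9.39 and 9.81% in γδ control libraries, against 7.55 and 5.07% in WT CD4+ MCD libraries and 5.51 and 5.05% in WT CD4+ control libraries. No γδ library overlapped a CD4+ library. mt-Cytb held 15.6 to 16.8% in γδ libraries and 17.2 to 19.3% in WT CD4+ libraries, again without overlap, and with both diets pooled the shares of the other 5 overlapped. Set per mitochondrial mRNA count, 1.64% of all genes were higher and 30.8% lower without overlap over both diets. On control diet alone none of the well-counted mRNAs overlapped, with mt-Co1 and mt-Cytb lower and those of complex I higher. Of all genes, 6.88% were so higher and 52.6% lower. On MCD alone mt-Nd2 and mt-Nd5 were higher and mt-Cytb lower, against 3.77 and 58.8% of all genes. mt-Nd2 counts per mt-Co1 count lay between 0.223 and 0.295 in γδ libraries, against 0.0993 to 0.207 in WT CD4+ and 0.104 to 0.135 in KO CD4+ libraries. Both genes are read from the forward strand, and 5 tRNA genes lie between them.

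When counts were set relative to the sum of the mitochondrial mRNAs in place of TMM scaling, mt-Nd2 was the only member called higher in γδ T cells, with log2 fold changes of 0.79 ± 0.21 on MCD, 0.86 ± 0.21 on control diet and 0.83 ± 0.15 in the average (SE; edgeR adjusted p = 0.0185, 0.0396 and 0.00132). On the same scale the rRNAs were lower in γδ T cells in the average, with log2 fold changes of -0.41 for mt-Rnr2 and -0.28 for mt-Rnr1 (edgeR adjusted p = 0.00578 and 0.023), and also on MCD (-0.53 and -0.44, edgeR adjusted p = 0.0144 and 0.0226). On control diet they were not called (-0.28 and -0.12, edgeR adjusted p = 0.219 and 0.566). Of all genes, 34.7% were called in the average on this scale, 18.7% on MCD and 2.83% on control diet.

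In γδ T cells the diet moved no member past the test. The 9 well-counted members had log2 fold changes of MCD over control between 0.11 and 0.77, and 6 of the 9 were higher in both MCD libraries than in both control libraries, where 11.1% of all genes were. The largest was mt-Nd5, with 12760 and 12880 CPM on MCD against 6050 and 9009 CPM on control diet (log2 fold change 0.77 ± 0.21, SE; edgeR adjusted p = 0.122). mt-Rnr2 was at 0.28 (edgeR adjusted p = 0.145) and mt-Nd2 at 0.57 (edgeR adjusted p = 0.239). edgeR called 0 genes of any kind here, while 2839 genes (17.5%) had an unadjusted p under 0.05, DESeq2 called 2066 genes and none of the members, and limma-voom called 63 genes, 2 of them members. Scaling by total counts alone moved the median of all genes by -0.205 on the log2 scale, and put mt-Rnr1 at -0.114 and mt-Rnr2 at 0.046. Endothelial markers (7 genes) summed to 89.0 to 108 CPM in γδ MCD libraries and 615 to 1150 CPM in γδ control libraries, and their part in the diet values was not tested.

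In WT CD4+ T cells no member was called between diets either, and edgeR called 0 genes in all (346, or 2.13%, at an unadjusted p under 0.05; limma-voom called 0 and DESeq2 41). Log2 fold changes of MCD over control ran from -0.29 for mt-Co1 to 0.62 for mt-Nd6, which had 625.5 and 422.6 CPM on MCD against 326.0 and 356.2 CPM on control diet (edgeR adjusted p = 1). mt-Nd6 was higher without overlap, mt-Co1 lower without overlap, and the other 7 overlapped; of all genes 16.7% were higher and 17.2% lower without overlap, so these counts are at the level of all genes.

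In KO CD4+ T cells mt-Rnr2 was lower on MCD. It had 212000 and 199800 CPM on MCD, against 320000 and 298100 CPM on control diet. The log2 fold change was -0.59 ± 0.08 (SE; edgeR adjusted p = 0.034), or 1.5-fold lower, and it was the only member among the 6 genes called, 0.037% of all tested. mt-Rnr1 had 135700 and 118900 CPM on MCD, against 197400 and 202500 CPM on control diet, with a log2 fold change of -0.65 ± 0.12 that did not pass the test (SE; edgeR adjusted p = 0.0909).

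mt-Co1 behaved like the rRNAs in size, with 11360 and 12150 CPM on MCD against 18880 and 16430 CPM on control diet (log2 fold change -0.59 ± 0.12, SE; edgeR adjusted p = 0.157). mt-Nd5 had 4231 and 3892 CPM on MCD and 3914 and 3889 CPM on control diet (log2 fold change 0.06). In all, 6 of the 9 members were lower without overlap and 1 higher, against 18.1 and 20.8% of all genes. The mt-Rnr2 call is not firm: without any one of the 4 KO libraries its adjusted p lay between 0.129 and 0.274, and it was not called by DESeq2 (adjusted p = 0.345), limma-voom (0.0751), limma on log2(FPKM + 1) or log2(FPKM + 0.1) (0.647 and 0.186), edgeR per mitochondrial mRNA count (0.704), with a robust spread (0.0538) or over genes with a mean of at least 50 counts (0.0577). limma-voom called mt-Co1 instead, here (adjusted p = 0.000991) and in KO against WT on control diet (0.00154). Under total-count scaling, which moved the median of all genes by 0.29, mt-Rnr2 was at -0.28 (edgeR adjusted p = 0.0421).

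On control diet, KO CD4+ T cells had more mt-Rnr2 than WT CD4+ T cells. The gene had 320000 and 298100 CPM in KO control libraries, against 199100 and 186400 CPM in WT control libraries. The log2 fold change was 0.68 ± 0.08 (SE; edgeR adjusted p = 0.0117), 1.60-fold, and mt-Rnr2 was the only gene called higher among the 4 called (0.0247% of genes; 0.00617% higher). mt-Rnr1, at 197400 and 202500 CPM in KO libraries against 127900 and 117200 CPM in WT libraries, had a log2 fold change of 0.71 ± 0.12 (SE; edgeR adjusted p = 0.0788).

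All 9 well-counted members were higher in both KO control libraries than in both WT control libraries, where 16.7% of all genes were; the mRNAs had log2 fold changes of 0.38 to 0.90, none past the test. The mt-Rnr2 call was lost without KO control replicate 1 (edgeR adjusted p = 0.0819), KO control replicate 2 (0.0533) or WT control replicate 3 (0.0891). It was also lost under DESeq2 (0.376), limma-voom (0.0521), limma on log2(FPKM + 1) and log2(FPKM + 0.1) (0.74 and 0.208), and per mitochondrial mRNA count (0.912). Both KO comparisons share the KO control libraries. A list of 6 general T cell markers summed to 1300 to 1490 CPM in KO MCD, 1980 to 2040 CPM in KO control and 1270 to 1410 CPM in WT control libraries. In the same order, 7 B and plasma cell markers summed to 242 to 258, 514 to 641 and 288 to 351 CPM, and 8 hepatocyte markers to 2.67 to 16.0, 30.7 to 39.4 and 13.8 to 25.6 CPM. The part of these in the rRNA values was not tested.

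On MCD, no member differed between KO and WT CD4+ T cells by the test: log2 fold changes ran from 0.04 to 0.36, every edgeR adjusted p was 1, and 2 of the 9 members were higher without overlap, against 15.9% of all genes. edgeR called 0 genes in that comparison and 337 (2.08%) had an unadjusted p under 0.05; limma-voom called 0 and DESeq2 36. The test of whether the diet acted differently in KO and WT CD4+ T cells gave a log2 difference of -0.64 ± 0.12 for mt-Rnr2 (SE; edgeR adjusted p = 0.299), with 0 genes called and 703 (4.33%) at an unadjusted p under 0.05; limma-voom called 1 and DESeq2 71. Averaged over both genotypes, the diet gave mt-Rnr2 -0.26 (edgeR adjusted p = 0.203), and averaged over both diets the genotype gave 0.36 (edgeR adjusted p = 0.149), where 4.42% of all genes had an unadjusted p under 0.05.

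The makeup of the mitochondrial mRNAs showed a diet pattern in all 3 cell groups, noticed after the values were seen. mt-Nd5 held 18.5 and 18.1% of mitochondrial mRNA counts in γδ MCD libraries, against 13.6 and 14.4% in γδ control libraries. It held 15.6 and 14.3% in KO MCD libraries, against 11.1 and 11.6% in KO control libraries, and 17.3 and 13.1% in WT CD4+ MCD libraries, against 11.3 and 11.7% in WT CD4+ control libraries. mt-Nd6, its neighbour on the opposite strand, held 1.97 to 2.53% in MCD libraries and 1.46 to 2.09% in control libraries. Both shares were higher without overlap on MCD in 3 of 3 diet comparisons. Of all genes set per mitochondrial mRNA count, 6.46% were so in γδ, 29.1% in KO CD4+ and 17.4% in WT CD4+ T cells.

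On that scale the log2 fold changes of mt-Nd5 were 0.39 in γδ, 0.40 in KO CD4+ and 0.40 in WT CD4+ T cells, and none passed the test (edgeR adjusted p = 0.238, 0.704 and 1). The share of mt-Co1 was lower on MCD without overlap in 2 of the 3, and the other 4 mRNAs had no direction common to all 3. WT CD4+ MCD replicate 1 stood apart from replicate 3, with 36.6 against 51.1% for mt-Co1 and 7.55 against 5.07% for mt-Nd2.

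**Figure D4:**
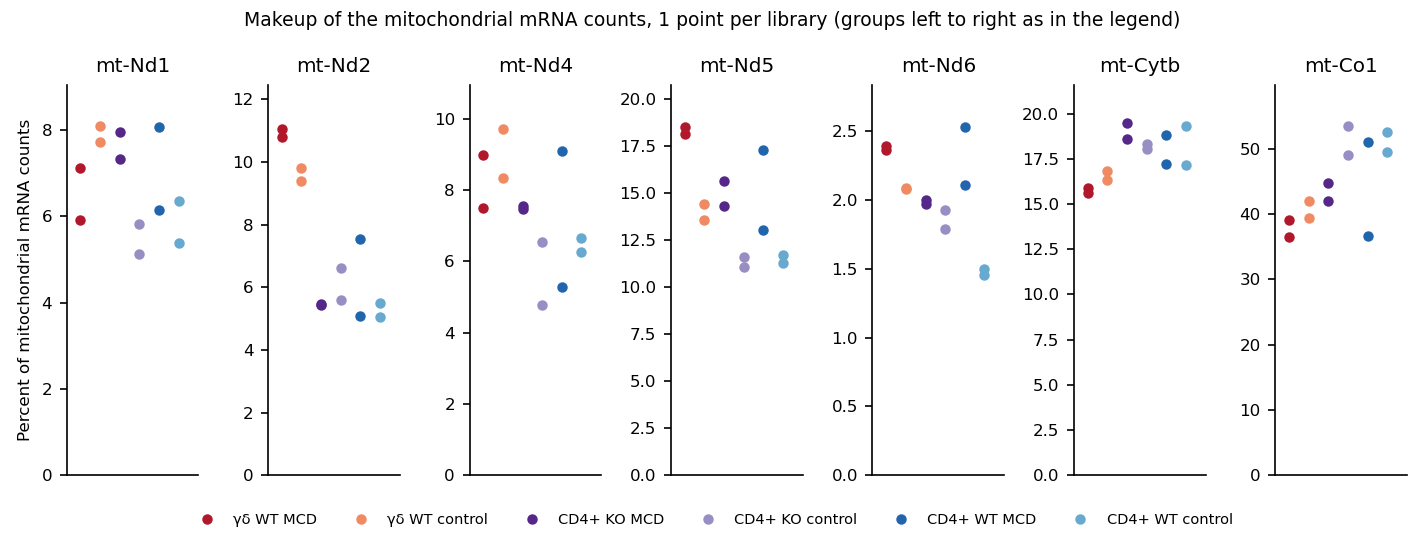
Percent of the mitochondrial mRNA counts held by each of the 7 well-counted mRNAs (vertical axes) in every library (points), by group. mt-Nd2 lies between 9.39 and 11.04% in γδ libraries and between 5.05 and 7.55% in CD4+ libraries, and mt-Nd5 is higher on MCD than on control diet in each cell group.

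The few-count mRNAs varied widely between replicates. mt-Co2 had 66 and 34 counts in γδ MCD libraries and 293 and 138 in γδ control libraries; it had 20 and 159 in KO MCD, 73 and 17 in KO control, 16 and 10 in WT CD4+ MCD, and 897 and 6 in WT CD4+ control libraries. mt-Atp6 had 714 and 13 counts in the same WT CD4+ control libraries and 4 to 619 elsewhere. WT CD4+ control replicate 2 was the high one for both. mt-Co3 had 1 to 25 counts in every library, mt-Nd3 16 to 75, mt-Nd4l 6 to 145 and mt-Atp8 4 to 297.

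Together the 6 held 0.0155 to 0.340% of mitochondrial mRNA counts. The well-counted 7 had at least 7091 counts in each library. mt-Nd4l had the lowest adjusted p of the 6, in γδ against WT CD4+ T cells averaged over diets (log2 fold change 2.66 ± 1.14, SE; edgeR adjusted p = 0.143), and edgeR called none of the 6 in any comparison. In that comparison mt-Nd4l was called by DESeq2 (adjusted p = 0.00313) and by limma on log2(FPKM + 1) and log2(FPKM + 0.1) (adjusted p = 0.0024 and 0.00326), and mt-Atp8 by DESeq2 (adjusted p = 0.0293). The same 3 alternatives called mt-Nd4l in γδ against WT CD4+ T cells on control diet, and no other few-count mRNA was called by any alternative.

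The nuclear copies themselves were counted low. Gm28661, the copy of mt-Co2, had 50 to 182 counts per library, Gm10925, that of mt-Atp6, 39 to 769, Gm28437, that of mt-Co3, 4 to 45, Gm28438, that of mt-Nd3, 0 to 6, and Gm10222, that of mt-Nd4l, 11 to 97. The pseudogenes with mitochondrial sequence summed to 0.00911 to 0.0261% of mitochondrial counts. So genes and copies were both low. Adding the copies to the share of mitochondrial counts left the γδ and CD4+ difference at 13.4 points, which so few counts could not have moved noticeably. Whether reads were lost between genes and copies was not tested.

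mt-Atp8 has no annotated copy, although it lies inside the copied stretch of the mitochondrial genome between mt-Co2 and mt-Atp6, and was low as well. Its last 43 bases are also the first of mt-Atp6 and read, from the same transcripts:
mt-Atp8 end and mt-Atp6 start: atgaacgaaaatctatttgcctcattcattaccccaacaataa
The letters of unannotated nuclear sequence were not analysed here. mt-Co1 and mt-Nd4 share 51.1 and 62.2% of their windows with copies, and how many of their reads went to the copies was not tested. In edgeR's TMM-scaled fit mt-Rnr1, mt-Nd1, mt-Nd6 and mt-Cytb, which have no annotated copy, were called higher in γδ T cells on both diets, with the limits given above. The part of the copies in the γδ differences was not tested.

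The 22 tRNAs, of 59 to 75 bases, were nearly absent: 271 to 936 counts per library, 0.00159 to 0.00403% of all counts. Standard RNA-seq libraries recover RNAs as short and folded as tRNAs poorly, and the counts are not read as tRNA abundance here. 14 tRNA genes lie on the forward and 8 on the reverse strand. mt-Tp, the proline tRNA (bases 15356 to 15422, reverse strand), had 139 to 466 counts per library, 49.0% of all tRNA counts. mt-Tl1, a leucine tRNA that begins at the base after mt-Rnr2 ends (bases 2676 to 2750), had 49 to 213, 22.1%. They are shown here whole because they carried 71.1% of the tRNA signal, beside the 3 tRNAs with no count in any library.
mt-Tp: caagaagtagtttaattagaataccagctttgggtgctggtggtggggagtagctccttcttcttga
mt-Tl1: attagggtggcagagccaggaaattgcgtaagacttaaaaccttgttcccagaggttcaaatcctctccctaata
mt-Td: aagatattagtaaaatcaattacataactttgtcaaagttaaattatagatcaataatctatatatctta
mt-Tk: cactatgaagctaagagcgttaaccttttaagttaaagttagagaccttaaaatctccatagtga
mt-Ty: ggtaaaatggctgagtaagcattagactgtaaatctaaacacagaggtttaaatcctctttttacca

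mt-Tp had 354 and 243 counts in γδ MCD, 199 and 466 in γδ control, 227 and 225 in KO MCD, 139 and 337 in KO control, 144 and 163 in WT CD4+ MCD, and 196 and 189 in WT CD4+ control libraries. mt-Tl1 had 98 and 65 in γδ MCD, 207 and 213 in γδ control, 69 and 107 in KO MCD, 152 and 114 in KO control, 100 and 49 in WT CD4+ MCD, and 61 and 69 in WT CD4+ control libraries. mt-Tl1 had its highest counts in the γδ control libraries, and mt-Tp counts were higher in γδ than in WT CD4+ libraries on each diet. For mt-Tp the KO MCD libraries lay between the γδ and WT CD4+ MCD libraries, and the KO control libraries overlapped the control libraries of both. For mt-Tl1 the KO MCD libraries overlapped the γδ and WT CD4+ MCD libraries. Its KO control libraries lay between the γδ and WT CD4+ control libraries.

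By mean level the next tRNAs were mt-Te, for glutamate, at 1.34 CPM, mt-Tm, for methionine, at 1.26 CPM and mt-Tq, for glutamine, at 0.915 CPM, after mt-Tp at 13.03 and mt-Tl1 at 5.703 CPM. mt-Td, mt-Tk and mt-Ty, for aspartate, lysine and tyrosine, had 0 counts in all 12 libraries, which allows a level of up to 0.130 to 0.247 CPM (3 counts per library), and mt-Ts1 had 2 counts in 1 library. edgeR called no tRNA in any comparison. The lowest adjusted p was that of mt-Tp in γδ against WT CD4+ T cells averaged over diets (log2 fold change 1.33 ± 0.68, SE; edgeR adjusted p = 0.232). In that comparison alone, limma on log2(FPKM + 0.1) called mt-Te, mt-Tl1, mt-Tp and mt-Tr higher (adjusted p between 0.0138 and 0.0479), on log2(FPKM + 1) the same without mt-Tp, and DESeq2 mt-Tp (adjusted p = 0.0467). On control diet 13 of the 22 were higher in both γδ libraries than in both WT CD4+ libraries, 9 of the 11 that passed the filter and 4 of the 11 that did not. Of all tested genes, all of which passed the filter, 20.1% were so. On MCD it was 4 of the 11 that passed and 1 of the other 11, with 1 of the other 11 lower, against 14.5 and 32% of tested genes. Over both diets it was 2 of the 11 that passed, against 5.56%.

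**Figure D5:**
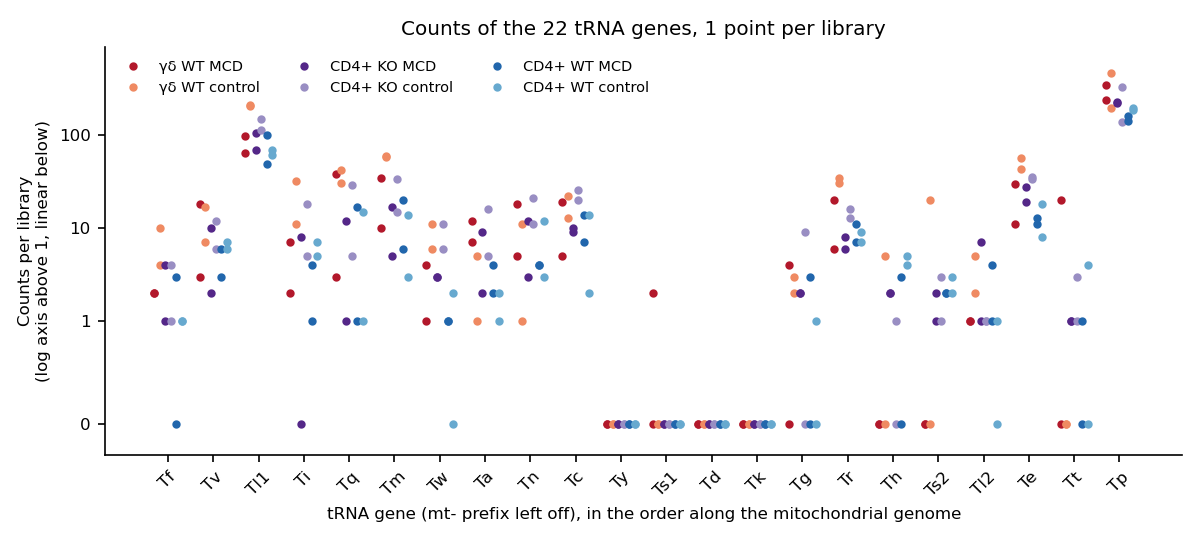
Counts per library (vertical axis, log above 1 and linear below) of each of the 22 mitochondrial tRNAs (horizontal axis, in genome order), 1 point per library, coloured by group. mt-Tp and mt-Tl1 hold 71.1% of the counts, and mt-Td, mt-Tk and mt-Ty have none.

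The same comparison was read for lists of nuclear genes that serve mitochondrial gene expression and respiration. In γδ against WT CD4+ T cells averaged over diets, the median log2 fold change was -0.35 over 76 mitochondrial ribosomal proteins, -1.11 over 18 rRNA maturation factors, -1.40 over 18 tRNA modification enzymes and -1.34 over 16 genes of mitochondrial DNA replication and the nucleoid. It was 0.19 over 16 transcription factors and enzymes, 0.12 over 20 RNA cleavage and decay factors, and 0.16 over 71 nuclear subunits of complexes I, III, IV and V, against -0.23 over all genes and 1.56 over the 13 mitochondrial mRNAs. Some medians differed between diets. Replication and nucleoid genes were at 0.20 on control diet and at -2.44 on MCD. In the same order, rRNA maturation factors were at -0.28 and -1.89, and cleavage and decay factors at 0.27 and -0.25. tRNA modification enzymes were at -1.17 and -1.8, ribosomal proteins at -0.36 and -0.41, and all genes at -0.06 and -0.30. In the average over diets, 3 (1.28%) of the 235 genes tested in these lists were called higher and 6 (2.55%) lower. Of all genes 3.42% were higher and 2.53% lower, so the calls were no more frequent than among all genes. They are named for their roles, not as a change of a list.

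Among ribosomal proteins, Mrpl37 was lower (log2 fold change -4.42 ± 1.19, SE; edgeR adjusted p = 0.0288), the only one of 76. Mrpl37 averaged 0.108 CPM in γδ MCD and 2.79 ± 3.1 CPM in γδ control libraries (SD). In WT CD4+ libraries it averaged 24.5 ± 12.8 CPM on MCD and 11.3 ± 13.3 CPM on control diet (SD). Among rRNA maturation factors, Mettl17, which acts in assembly of the small subunit, and Eral1, a chaperone of the 12S rRNA, were lower, with log2 fold changes of -4.49 and -3.56 (edgeR adjusted p = 0.0208 and 0.0358). Mettl17 averaged 0.0336 CPM in γδ MCD and 2.98 ± 3.98 CPM in γδ control libraries (SD). In WT CD4+ libraries Mettl17 averaged 16.9 CPM on MCD and 12.3 CPM on control diet. Eral1 had 0.0336 CPM on average in γδ MCD and 9.70 in γδ control libraries, against 9.93 in WT CD4+ MCD and 18.4 in WT CD4+ control libraries. Ssbp1, the single-stranded DNA binding protein of the nucleoid, and Polg2, the accessory subunit of the mitochondrial DNA polymerase, were lower, with log2 fold changes of -2.30 and -2.40 (edgeR adjusted p = 0.0225 and 0.0478).

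Gabpa, a transcription factor of nuclear genes for respiration, was higher, with a log2 fold change of 1.12 (edgeR adjusted p = 0.0374). Of the nuclear subunits, Ndufa10 of complex I and Atp5b, the catalytic β subunit of the ATP synthase, were higher, with log2 fold changes of 1.33 and 0.69 (edgeR adjusted p = 0.0403 and 0.0492), 2 of 71. Trmu, a tRNA thiolation enzyme, was called lower (edgeR adjusted p = 0.0257), with all γδ MCD libraries at 0 and 0.536 CPM on average in γδ control libraries, against 6.12 and 4.20 CPM in WT CD4+ MCD and control libraries. No cleavage or decay factor was called; the smallest p was that of Mtpap, the mitochondrial poly(A) polymerase, on MCD (log2 fold change -4.54 ± 1.22, SE; edgeR adjusted p = 0.0579). On MCD alone, Mrpl37, Mettl17, Eral1, Ssbp1 and Ndufa10 were called (2.13%, against 2.65% of all genes), and on control diet 0 of the 235, against 0.654% of all genes. None was called between diets or between KO and WT CD4+ T cells.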

How the data were processed

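Per the submitters' processing notes, the authors used bcl2fastq, STAR, featureCounts and DESeq2 with mm10 (GRCm38); versions, annotation, strand setting and treatment of multi-mapping reads are not given in the sources used here. The deposited tables hold raw counts per gene and FPKM; the library factor of the deposited FPKM was proportional to DESeq2-type size factors. Libraries were grouped by their labels. The members and the nuclear and marker lists were chosen with earlier results of these data known.

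Counts were fitted with edgeR 4.0.16 in R 4.3.3 over all 12 libraries with 1 coefficient per group, TMM scaling and filterByExpr (minimum count 10, minimum total 15); log2 fold changes use a prior count of 2, and a call is a Benjamini-Hochberg adjusted p under 0.05 over all tested genes. Shares and rRNA-to-mRNA ratios were compared by two-sided exact permutation over libraries. The edgeR step was tested on simulated counts with the same fixed spread for all genes, and only for the diet comparison of KO CD4+ T cells. The other steps were not tested in this way. Copies were sought as exact 50-base matches to GENCODE vM21 transcripts. All rRNAs and mRNAs are named; tRNAs are named among the 5 highest by mean CPM or where called, besides those at 0 and mt-Ts1, named after their values were seen; list genes are named where called, up to 4 per list. Alternatives were other scalings, filters, spreads and sets of libraries, limma 3.58.1 (voom, or on log2 of the deposited FPKM plus 1 or 0.1) and DESeq2 1.42.0, also leaving out each library.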

Additional observations from a re-analysis of the deposited data

Results flagged for a closer look

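Among the 4 CD4+ control libraries, WT replicate 3 had a log2 ratio of rRNA to mRNA counts of 3.672, apart from 3.871, 3.875 and 3.903 in the other 3. The gap was large against the range of the group. In all, 5 groups of 4 libraries, which share libraries with each other, were checked for the share and the ratio. This was the only one so marked of these 10 checks, and chance marks about 1 in 20.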

How the results depend on the processing

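The γδ against WT CD4+ result of 9 members (106 genes of all on control diet, 430 on MCD, 966 in the average) stayed within 1.5 times in number under most alternatives. The members called were not always the same. On control diet log2(FPKM + 1) did not call mt-Rnr1, mt-Rnr2, mt-Co1 and mt-Cytb, and called mt-Nd4l. With only the groups compared, mt-Nd1, mt-Nd4 and mt-Nd6 were not called on MCD (edgeR adjusted p = 0.0657, 0.0708 and 0.072). With counts set per mitochondrial mRNA the number was 1, 3 and 3 members (459, 3036 and 5632 genes), and with log2(FPKM + 0.1) 14 members in the average (1440 genes). DESeq2 called 912, 2880 and 3035 genes. Without 1 library it was 3 to 9 on control diet, 6 to 9 on MCD and 9 to 9 in the average. Per mitochondrial mRNA the log2 fold change turned negative on control diet for mt-Rnr1 (-0.12), mt-Rnr2 (-0.28), mt-Co1 (-0.33) and mt-Cytb (-0.14). On MCD it did so for mt-Rnr1 (-0.44), mt-Rnr2 (-0.53), mt-Co1 (-0.21), mt-Cytb (-0.20) and mt-Nd1 (-0.13). In the average it did so for mt-Rnr1 (-0.28), mt-Rnr2 (-0.41), mt-Co1 (-0.27) and mt-Cytb (-0.17).

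Between diets in KO CD4+ T cells, 1 member (6 genes) became 0 per mitochondrial mRNA (5 genes), with a mean of at least 50 counts (3), with a robust spread (7), with log2(FPKM + 1) (15) or plus 0.1 (9) and with DESeq2 (265), and 3 without a filter (105) or with only the groups compared (28). In KO against WT on control diet, 1 member (4 genes) became 0 per mitochondrial mRNA (3), with log2(FPKM + 1) (2) or plus 0.1 (4) and with DESeq2 (119), 6 without a filter (52) and 3 with only the groups compared (11). Both ran from 0 to 2 without 1 library. Without a filter, members called were 4 for the γδ diet (555 genes), 3 for the CD4+ diet average (106), 5 for the genotype average (37) and 2 for each interaction (44 and 113). limma-voom called 2 for the γδ diet (63). With only the groups compared it was 3 for the CD4+ diet average (84), 1 for the genotype average (3) and 1 for the genotype by diet interaction (1). These 5 ran from 0 to 1 without 1 library; for the γδ diet 1 member and 1342 genes were called without γδ MCD replicate 4. The genotype difference in the log2 ratio of rRNA to mRNA ran from -0.11 to 0.01 without 1 library, the reversed value being 0.009657 without KO MCD replicate 2. The causes were not tested.

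In the labels, KO libraries on different diets are linked by a replicate number only. Deviations from the group mean of same-numbered KO libraries had r = -0.006 over 16218 genes, which does not settle whether they are paired. With the replicate number as a block, the KO diet comparison called 3 members and 204 genes, with mt-Rnr2 at -0.61.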

Other observations

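Over the 12 libraries, the 5 nuclear genes whose log2 CPM ran most like the summed mitochondrial mRNA level, of 7987 compared, were Anp32b, Pfn1, Dazap2, March1 and Ctsh, with Pearson r between 0.95 and 0.965, as a description across libraries that fall into γδ and CD4+ sets and share the same scaling. Within the 8 CD4+ libraries r was 0.725, 0.763, 0.839, 0.827 and 0.637 in that order. Ctsh, a lysosomal cysteine protease, averaged 203 CPM in γδ MCD and 44.0 CPM in γδ control libraries, against 0.965 to 4.81 CPM in the CD4+ groups.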
